A study of Mus musculus with 4 samples.

Results

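Cartilage matrix is more than collagen. The genes described here encode 10 of its other secreted proteins, and they were measured by bulk RNA-seq in 4 libraries of sorted mouse skeletal stem/progenitor cells. The genes are *Acan*, *Hapln1*, *Matn1*, *Matn3*, *Matn4*, *Comp*, *Epyc*, *Chad*, *Lect1*, and *Ucma*, taken by symbol from the 23946 symbols that each library lists. They were chosen by their known place in cartilage matrix at a time when their FPKM values in these libraries were already known, so their levels are given as a description. All 10 were found, and 10 of 10 reached 1 FPKM in each library. FPKM are the unit of transcript level here, fragments divided by the transcript's length and the size of the library.

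The cells came from wild type CD-1 mice at postnatal day 3 and were sorted by FACS as CD51+ and CD200+ and as negative for the blood antigens CD45 and Ter119, the endothelial antigen Tie2, both Thy1.1 and Thy1.2, 6C3, and also CD105. They were taken from the coronal suture (COR), the sagittal suture (SAG), and the posterior frontal suture (PF) of the skull, and from the growth plate (GP) of the tibia. The PF suture is the one that closes in early life, and the SAG and COR sutures stay patent. A dissected suture held more than its mesenchyme, since dura mater, periosteum, and the edges of the growing bones came with it. There was 1 library per tissue, with cells pooled over mice, so there is no replicate error, no test between tissues, and no way to tell a property of a tissue from a property of its library. In such bulk samples, fewer cells of a kind and less RNA per cell cannot be told apart.

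Growth plate cartilage is built by chondrocytes, which secrete a network of type II collagen fibrils filled with aggrecan. Aggrecan monomers bind to hyaluronan chains, and link protein locks them there, so that the aggregate holds water and resists compression. Matrilins, COMP, and small leucine-rich proteins connect these aggregates to the fibrils and to the cell surface. As chondrocytes mature they enlarge and switch to type X collagen, which marks hypertrophic cartilage. Skull sutures lie between bones that form mostly without a cartilage model. The PF suture itself, by the paper's account, closes by endochondral ossification. Its chondrogenesis begins later than the age sampled here.

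The numbers of sequenced fragments were not given with the values. They were estimated from the most frequent low value of FPKM multiplied by transcript length, which was taken as 1 fragment. By this estimate SAG was the deepest library, and PF held 43.6%, GP 83.9%, and COR 88.0% of its fragments. The values of the matrix genes then rested on between 53 fragments, for *Ucma* in COR, and 65424, for *Matn1* in SAG. The sort gene *Cd200* was at 57.1 FPKM in GP, 62.6 in COR, 23.5 in PF, and 48.1 in SAG, and *Ptprc*, the gene of CD45, was at most at 0.568, in PF. The chondrocyte-like marker list, which holds *Acan*, summed to 3162 FPKM in GP, 170 in COR, 185 in PF, and 5032 in SAG, and 8 of 8 of its genes reached 1 FPKM in each library. Among marker lists for other cell types, the summed level of 8 choroid plexus genes was 5358 FPKM in SAG, 509 in PF, 201 in COR, and 56.7 in GP, with 5 of 8 genes highest in SAG. *Ttr* made up most of this sum, at 5103 FPKM in SAG, and the part of such cells in the results below was not tested.

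Summed over the 10 matrix genes, the level was 3062 FPKM in SAG, 2058 in GP, 515 in PF, and 197 in COR. The SAG library therefore held 15.5 times the matrix gene signal of COR, 5.95 times that of PF, and 1.49 times that of GP. The genes did not share one order of tissues. GP was highest for 5 of them, SAG for 4, and PF for 1, while COR was lowest for 6. Ranked among the genes at 1 FPKM or more in the same library, the median matrix gene stood at percentile 95.9 in SAG, 94.5 in GP, 61.2 in PF, and 56.6 in COR.

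**Figure D1:**
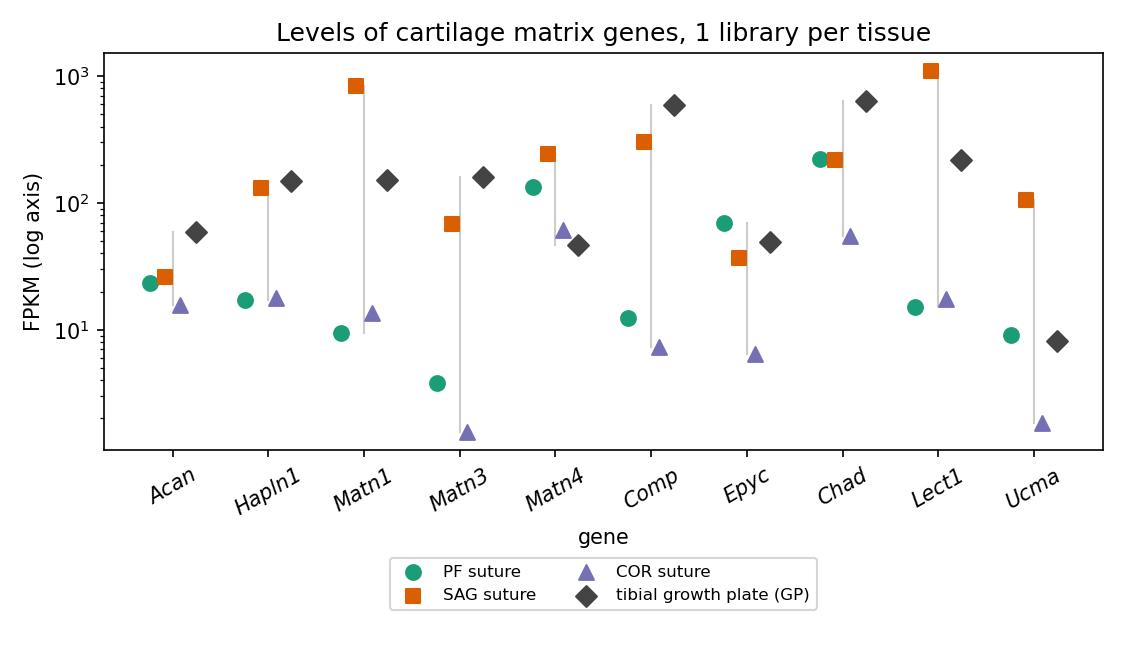
FPKM of the 10 cartilage matrix genes on a log axis, with 1 point per library, a grey line from the lowest to the highest, and no error bars because there are no replicates. *Matn1* and *Lect1* stand highest in SAG, at 838 and 1094 FPKM, *Comp* and *Chad* highest in GP, at 587 and 631, and COR lies at or near the bottom for most genes.

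Aggrecan and link protein form the hyaluronan aggregate. *Acan* (mm9 chromosome 7, from 86198369 to 86259985), the gene of aggrecan, was at 59.0 FPKM in GP, 15.6 in COR, 23.3 in PF, and 25.9 in SAG. It had the narrowest range of the 10 genes, 3.79-fold from COR to GP. *Hapln1* (chromosome 13, from 89680241 to 89751437), the gene of cartilage link protein, was at 149 FPKM in GP, 17.9 in COR, 17.2 in PF, and 131 in SAG. PF and COR were thus alike for *Hapln1* and low, and SAG and GP were alike and high. Within a library the level of *Hapln1* was 0.739 times that of *Acan* in PF, 1.15 times in COR, 2.52 times in GP, and 5.07 times in SAG. The SAG library therefore had the most link protein transcript per aggrecan transcript.

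The matrilins are adaptor proteins that form oligomers and bridge collagen fibrils and proteoglycans. *Matn1* (chromosome 4, from 130500300 to 130511390), a matrilin of maturing cartilage, was at 151 FPKM in GP, 13.5 in COR, 9.40 in PF, and 838 in SAG. *Matn3* (chromosome 12, from 8954735 to 8978834), the matrilin whose human gene is mutated in a form of multiple epiphyseal dysplasia, was at 159 FPKM in GP, 1.55 in COR, 3.81 in PF, and 68.2 in SAG. *Matn4* (chromosome 2, from 164215129 to 164230660) was at 46.3 FPKM in GP, 60.9 in COR, 133 in PF, and 241 in SAG. The 3 family members ordered the tissues differently: *Matn1* and *Matn4* were highest in SAG and *Matn3* in GP, and *Matn4* was the only gene of the 10 with GP at the bottom. The level of *Matn1* was 12.3 times that of *Matn3* in SAG and 0.946 times in GP. The level of *Matn4* was 14.1 times that of *Matn1* in PF and 4.52 times in COR, but 0.288 times in SAG and 0.308 times in GP. Among these 3 genes, the transcripts in PF and COR were therefore mostly *Matn4*. This does not hold for all matrilins, since *Matn2*, which is not among the 10 genes, was above *Matn4* in COR. *Matn2*, named after its values were seen, was at 90.2 FPKM in GP, 93.6 in COR, 69.1 in PF, and 158 in SAG.

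*Comp* (chromosome 8, from 72897447 to 72905964) encodes cartilage oligomeric matrix protein, a thrombospondin family pentamer that binds collagen and is also abundant in tendon. It was at 587 FPKM in GP, 7.35 in COR, 12.3 in PF, and 300 in SAG. Its pattern over the 4 libraries was closest to that of *Matn3*, at a Euclidean distance of 0.48 between mean-centred log2(FPKM + 1) profiles. Both were highest in GP and lowest in COR. The tendon gene *Tnmd*, which encodes tenomodulin, was at 1379 FPKM in GP, 401 in PF, 142 in SAG, and 69.6 in COR. Over the list of 6 tendon and fibrous tissue genes the summed level was 3525 FPKM in GP, 864 in COR, 1596 in PF, and 1249 in SAG, and 5 of 6 were highest in GP. *Fmod*, which is also on the list of other cartilage matrix proteins below, made up most of each sum, with 1078 FPKM in SAG. *Scx* was at 168 FPKM in GP, 107 in COR, 60.2 in PF, and 11.3 in SAG. The exception, *Dpt*, named after its values were seen, was at 100 FPKM in COR and between 1.05 and 4.01 elsewhere. The part of tendon and fibrous cells in the *Comp* values was not tested.

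Epiphycan and chondroadherin are proteins with leucine-rich repeats. *Epyc* (chromosome 10, from 97106702 to 97145088), the gene of epiphycan, a small proteoglycan of the growth plate, was at 49.0 FPKM in GP, 6.41 in COR, 69.3 in PF, and 37.0 in SAG. *Chad* (chromosome 11, from 94426361 to 94430441), the gene of chondroadherin, which binds integrin on chondrocytes, was at 631 FPKM in GP, 54.9 in COR, 223 in PF, and 220 in SAG. These were the genes of the 10, with *Matn4*, that had the highest levels in PF. In PF, *Chad* stood at percentile 96.0, *Matn4* at 93.4, and *Epyc* at 87.2 of expressed genes. *Acan* was at percentile 69.6, *Hapln1* at 62.8, *Matn1* at 47.9, and *Matn3*, the lowest, at 26.0.

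*Lect1* (chromosome 14, from 80037497 to 80061977) encodes chondromodulin, a protein of avascular cartilage that inhibits the growth of blood vessels, and *Ucma* (chromosome 2, from 4897168 to 4906794) encodes a small secreted protein of upper zone chondrocytes rich in Gla residues. *Lect1* was at 219 FPKM in GP, 17.5 in COR, 15.1 in PF, and 1094 in SAG. It ranked 24th of all genes in SAG, and *Matn1* ranked 38th. *Ucma* was at 8.08 FPKM in GP, 1.82 in COR, 9.03 in PF, and 106 in SAG. Of the 4 genes highest in SAG it had the widest gap to the next library, 11.7-fold above PF, and its level in GP was close to that in PF.

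*Lect1* and *Matn1* followed each other most closely of all 45 pairs of the matrix genes, with a distance of 0.22 between their profiles. The level of *Lect1* was 1.60 times that of *Matn1* in PF, 1.31 times in SAG, 1.30 times in COR, and 1.45 times in GP, while each gene ranged at least 72.7-fold between libraries. Over 4 libraries this is a description only. The genes lie on different chromosomes. The 250 bases before the annotated starts of this pair are shown next, with those of *Ucma*, the other SAG-high gene with low values elsewhere, and of *Acan* and *Chad*, both highest in GP. The sequences are from RefSeq on GRCm38.p6, a later build than the mm9 of the gene positions above, and are written from 5′ to 3′ along the gene. Capitals mark matches on either strand to the TATA box letters TATAAA, to the SOX type letters ACAAAG or else ACAATG, and to the GC box letters GGGCGG.

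Matn1, chr4:130944135-130944384, plus strand: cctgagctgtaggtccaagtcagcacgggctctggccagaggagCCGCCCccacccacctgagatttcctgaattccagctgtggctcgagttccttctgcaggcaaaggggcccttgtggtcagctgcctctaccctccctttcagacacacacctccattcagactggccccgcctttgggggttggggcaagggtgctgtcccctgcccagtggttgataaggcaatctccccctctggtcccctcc
Lect1, chr14:79662184-79662433, minus strand: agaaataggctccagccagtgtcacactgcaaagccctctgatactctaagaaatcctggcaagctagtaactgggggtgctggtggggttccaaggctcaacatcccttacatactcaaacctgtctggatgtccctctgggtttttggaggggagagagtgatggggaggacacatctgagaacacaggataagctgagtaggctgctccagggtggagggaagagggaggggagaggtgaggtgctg
Ucma, chr2:4975872-4976121, plus strand: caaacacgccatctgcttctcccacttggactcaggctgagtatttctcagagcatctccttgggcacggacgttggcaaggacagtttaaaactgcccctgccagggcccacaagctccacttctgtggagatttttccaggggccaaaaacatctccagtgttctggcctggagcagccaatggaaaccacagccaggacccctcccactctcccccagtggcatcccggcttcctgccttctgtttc
Acan, chr7:79052976-79053225, plus strand: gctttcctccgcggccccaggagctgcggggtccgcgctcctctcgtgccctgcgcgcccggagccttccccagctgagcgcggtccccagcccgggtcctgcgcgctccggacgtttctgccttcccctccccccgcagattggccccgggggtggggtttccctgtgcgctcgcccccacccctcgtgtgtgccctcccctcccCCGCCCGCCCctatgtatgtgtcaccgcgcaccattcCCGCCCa
Chad, chr11:94564797-94565046, plus strand: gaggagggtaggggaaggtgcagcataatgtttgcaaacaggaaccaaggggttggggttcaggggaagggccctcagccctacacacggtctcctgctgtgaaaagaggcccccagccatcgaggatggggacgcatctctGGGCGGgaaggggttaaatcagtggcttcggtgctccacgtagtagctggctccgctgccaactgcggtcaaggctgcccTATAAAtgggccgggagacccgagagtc

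RefSeq promoter windows, from 250 bases before to 50 bases after each start, were matched for 9 of the 10 genes, and *Lect1* was matched through its current symbol *Cnmd*. *Epyc* and *Matn4* had 2 starts each, which gave 11 windows. The TATA box letters TATAAA were found in 1 of these 11 windows, that of *Chad*, with the first base 28 bases before the start, and in 13.6% of all 32851 windows in the table. The SOX type letters ACAATG were found in 2 of 11 windows, both of *Epyc*, and in 12.6% of all, and ACAAAG in 1 of 11, also of *Epyc*, and in 18.7% of all. The GC box letters GGGCGG were found in 5 of 11 windows, 1 each of *Acan*, *Matn1*, *Matn3*, *Matn4*, and *Chad*, and in 35.7% of all windows. *Hapln1*, *Lect1*, and *Ucma* held none of the 4 motifs in these windows. The *Acan* window was 74.0% G and C, against 61.3% for *Matn1*, 56.0% for *Lect1*, and a median of 52.7% over all windows.

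Ratios between libraries were taken as log2 of (FPKM + 1), and a ratio of at least 3-fold, 1.58 on the log2 scale, was counted. Fold values given for single genes are plain ratios of FPKM, without the added 1. They are therefore larger than the counted ratios, most of all where a value is low. The 6 comparisons share libraries and are not independent of each other. In SAG-CD51+;CD200+ cells compared with COR-CD51+;CD200+ cells, 9 of 10 matrix genes were at least 3-fold higher in SAG, where 6.15% of all 12720 genes compared were higher by this rule. The exception was *Acan*, with a log2 ratio of 0.70. The median log2 ratio was 3.78, compared with 0.02 over all genes. *Lect1* was 62.5-fold, *Matn1* 62.1-fold, and *Ucma* 58.1-fold higher in SAG, with log2 ratios of 5.89, 5.86, and 5.24.

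In SAG compared with PF, 6 of 10 genes were at least 3-fold higher in SAG, and the share over all 13490 genes was 9.04%. These were *Matn1* (89.2-fold), *Lect1* (72.7-fold), *Comp* (24.4-fold), *Matn3* (17.9-fold), *Ucma* (11.7-fold), and *Hapln1* (7.65-fold). The other 4 did not reach the threshold. Their log2 ratios were 0.86 for *Matn4*, 0.15 for *Acan*, -0.02 for *Chad*, and -0.89 for *Epyc*; the sign for *Acan* turned relative to *Gapdh*, and that for *Chad* turned with median-ratio scaling, quantile normalization, and a GC correction. The median over the 10 genes was 3.14, against -0.03 over all genes.

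In GP compared with COR, 9 of 10 genes were at least 3-fold higher in GP, while 3.20% of all 12209 genes were. *Matn3* was 103-fold (log2 ratio 5.97) and *Comp* 79.9-fold (log2 ratio 6.14) higher in GP, and *Matn4*, the exception, had a log2 ratio of -0.39. *Ucma*, with a log2 ratio of 1.68, was only just past the threshold and was below it relative to *Gapdh* (1.51), with quantile normalization (1.55), and with a pseudocount of 5 (0.94). The median log2 ratio was 3.19. In GP compared with PF, 5 of 10 genes passed, *Comp* (47.7-fold), *Matn3* (41.8-fold), *Lect1* (14.5-fold), *Matn1* (log2 ratio 3.87), and *Hapln1* (8.65-fold), and the share over all 13101 genes was 6.24%. The median log2 ratio was 2.27. *Matn4* was 2.86-fold lower in GP than in PF, under the threshold, and passed it relative to *Gapdh*, with a log2 ratio of -1.96. *Chad*, at 2.83-fold higher in GP, passed it after the GC correction, with a log2 ratio of 1.70.

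**Figure D2:**
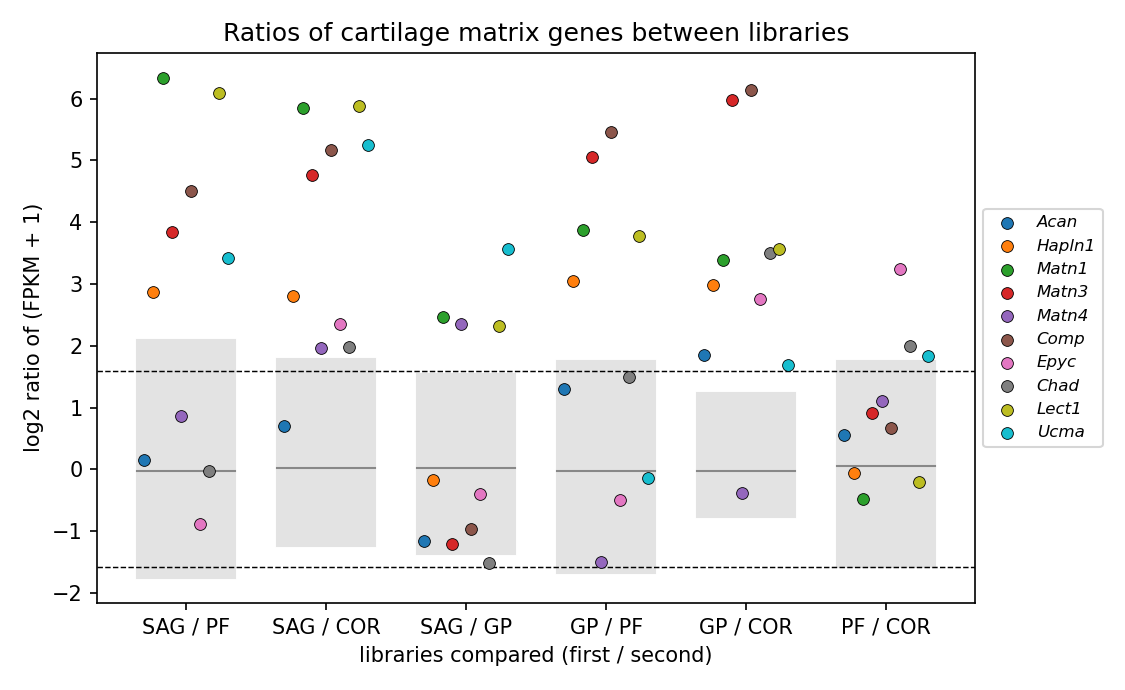
Log2 ratios of (FPKM + 1) of the 10 cartilage matrix genes, 1 point per gene, in each of 6 comparisons of 2 libraries. Grey boxes span the 5th to the 95th percentile of all genes compared, grey lines are their medians, and dashed lines mark 3-fold. In SAG / GP the points split into 4 genes above 3-fold, between 2.32 and 3.56, and 6 genes between -1.52 and -0.18.

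The SAG and GP libraries had matrix gene sums of similar size but differed in which genes made them up. In SAG compared with GP, 4 of 10 genes were at least 3-fold higher in SAG and 0 at least 3-fold lower, where 4.80% of all 12929 genes were higher by this rule and 3.86% lower. The 4 genes were *Ucma* (13.1-fold), *Matn1* (5.56-fold), *Matn4* (5.21-fold), and *Lect1* (log2 ratio 2.32). The other 6 were at the same level or lower in SAG, from 1.13-fold lower for *Hapln1*, whose log2 ratio was 0.02 with quantile normalization, to 2.87-fold lower for *Chad*. No gene lay between these groups: the lowest log2 ratio of the higher 4 was 2.32, for *Lect1*, and the next was -0.18, for *Hapln1*. The median log2 ratio was -0.29, and it lay within the range of the lower 6.

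The PF and COR libraries, both low in matrix gene sum, also differed in make-up. *Epyc* was 10.8-fold higher in PF, *Ucma* 4.95-fold, and *Chad* 4.06-fold, so 3 of 10 genes passed 3-fold, and the share over all 12853 genes was 6.81%. The log2 ratio of *Ucma* was 1.83, not far past the threshold, and with a pseudocount of 5 it was 1.04, under the threshold. *Hapln1*, *Matn1*, and *Lect1* had log2 ratios of -0.06, -0.48, and -0.20; the signs for *Hapln1* and *Lect1* turned relative to *Gapdh*, and that for *Hapln1* also after the GC correction. The median log2 ratio was 0.79, compared with 0.05 over all genes.

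The make-up of the summed FPKM of the 10 genes does not change when a library is multiplied by a scaling factor. *Lect1* and *Matn1* made up 63.1% of the sum in SAG. *Chad* and *Comp* made up 59.2% in GP. *Chad* and *Matn4* made up 69.1% in PF and 58.7% in COR, and with *Epyc* the share was 82.5% in PF. *Acan* was from 0.847% of the sum in SAG to 7.89% in COR.

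**Figure D3:**
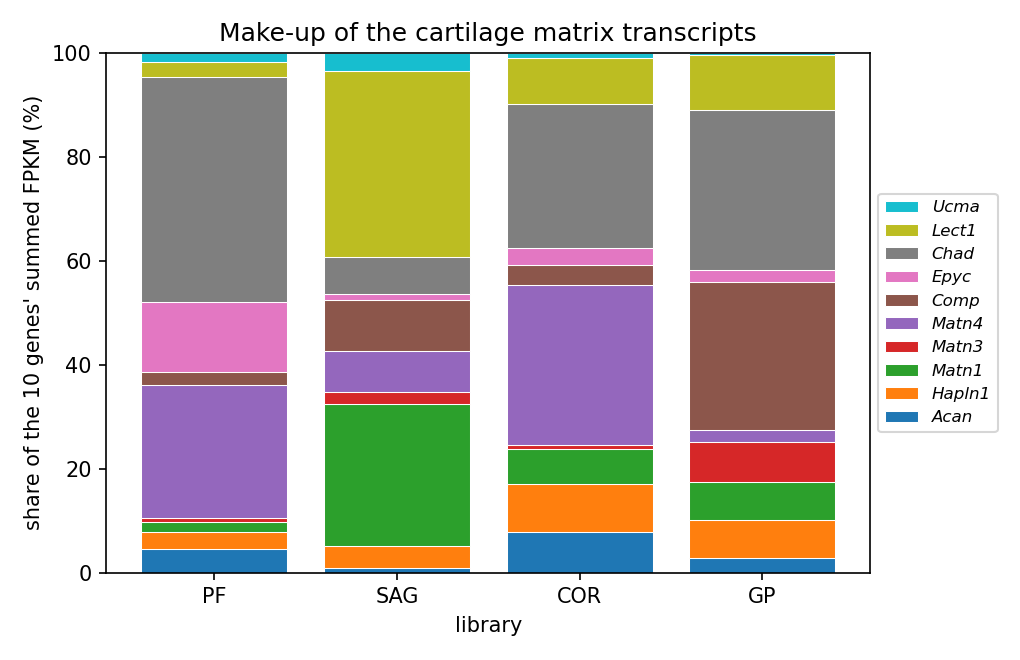
Share of each gene in the summed FPKM of the 10 cartilage matrix genes, in percent, 1 bar per library. *Lect1* and *Matn1* fill 63.1% of the SAG bar, *Chad* and *Comp* 59.2% of the GP bar, and *Chad* and *Matn4* 69.1% of the PF bar.

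The collagens of cartilage were read beside these genes. Of 7 cartilage collagen genes, 6 were highest in SAG and 1 in GP, and their summed level was 4618 FPKM in SAG, 2756 in GP, 234 in PF, and 213 in COR. At least 3-fold higher levels were found for 4 of 7 in SAG compared with COR, for 4 of 7 in GP compared with COR, for 5 of 7 in SAG compared with PF, and for 2 of 7, *Col9a1* and *Col9a3*, in SAG compared with GP, with 0 lower. Over all genes the shares higher were 6.15%, 3.20%, 9.04%, and 4.80%, in the same order. *Col2a1*, which encodes type II collagen, was at 1731 FPKM in GP, 35.4 in COR, 31.4 in PF, and 1750 in SAG. *Col9a1* and *Col9a3*, chains of type IX collagen, which coats the type II fibrils, were, with the 10 matrix genes left out of the search, nearest in profile to *Matn1* among 9792 genes at 5 FPKM or more in some library, at distances of 0.72 and 0.69, against 0.22 for *Lect1*. Ratios to *Col2a1* were chosen after the values were seen. Relative to *Col2a1*, *Lect1* was at 0.479 in PF, 0.625 in SAG, and 0.494 in COR, close to each other, and at 0.126 in GP. *Chad* behaved differently, at 7.10 times *Col2a1* in PF, 1.55 times in COR, 0.364 times in GP, and 0.125 times in SAG. In PF, *Chad*, *Matn4*, and *Epyc* were above *Col2a1*, and in COR *Chad* and *Matn4* were, *Matn4* at 1.72 times.

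Transcription factors of the chondrocyte programme were highest in SAG for 5 of 8 genes and in GP for 2, and *Foxa2* did not reach 1 FPKM. *Sox9*, the factor required for cartilage formation, was at 60.8 FPKM in GP, 11.9 in COR, 21.3 in PF, and 171 in SAG. It was among the 8 genes nearest to the median profile of the 10 matrix genes, at a distance of 0.91, with *Vegfc*, *Rgs2*, *Galnt18*, *Scin*, *Slc38a3*, *Sgk1*, and *Mir1895*, at distances of 0.70 to 0.87. *Sox5*, a partner of *Sox9*, was at 13.3 FPKM in SAG and between 3.25 and 3.53 in the other libraries, *Zbtb20* was at 49.2 in SAG and 34.2 in GP, and *Trps1* was at 9.06 in GP, 7.505 in SAG, 5.80 in COR, and 1.39 in PF. Of 7 such genes compared, 5 were at least 3-fold higher in SAG than in PF (9.04% of all genes), 4 than in COR (6.15%), and 1, *Sox5*, than in GP (4.80%). The genes nearest to *Acan* were *Gfra2*, *Camk4*, and *Speg*, at distances of 0.17 to 0.32, and none of them is known as a cartilage matrix gene.

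Most genes of the hypertrophic cartilage list did not follow the matrix genes in SAG. *Col10a1*, the gene of type X collagen, was at 600 FPKM in GP, 1.44 in PF, 1.08 in COR, and 0.813 in SAG. *Ihh*, a signal of prehypertrophic chondrocytes named here after its values were seen, was at 44.0 FPKM in GP, 6.48 in COR, 0.381 in SAG, and 0.136 in PF. The list also holds *Mmp13*, a collagenase of hypertrophic cartilage and of bone, which was at 346 FPKM in SAG, 605 in GP, 298 in COR, and 28.9 in PF. Unlike the rest of the list, *Mmp13* was at least 3-fold higher in SAG than in PF, at 12.0-fold. *Pth1r*, the parathyroid hormone receptor, was highest in COR, at 380 FPKM, with 241 in GP, 106 in PF, and 37.0 in SAG. *Alpl*, the alkaline phosphatase of mineralizing cells, was also highest in COR, at 645 FPKM, with 461 in PF, 258 in GP, and 59.7 in SAG. Of the 6 genes of the list, 3 were highest in COR, as the osteoblast lineage genes below were, and 3 in GP. The list is therefore not a reading of hypertrophic cartilage alone. In SAG compared with GP, 5 of the 6 were at least 3-fold lower and 0 higher, where 3.86% of all genes were lower, with a median log2 ratio of -3.46. Osteoblast lineage genes, read as another cell type, were highest in COR for 9 of 9, and their summed level was 11862 FPKM in COR, 8042 in GP, 2527 in PF, and 852 in SAG. *Spp1* made up most of each sum, at 8324 FPKM in COR, 6882 in GP, 1649 in PF, and 617 in SAG. The median log2 ratio over the 9 genes was 0.47 in GP compared with PF, and *Bglap* was lower in GP, at 159 FPKM against 426. SAG thus had the highest sum of matrix genes and the lowest sum of osteoblast genes, and the part of the latter in the values of the matrix genes was not tested.

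Of 12 other cartilage matrix proteins, 9 were highest in GP and 3 in SAG. In SAG compared with COR, 7 of 11 were at least 3-fold higher and 1, *Otor*, lower, where 6.15% of all genes were higher and 3.11% lower. In GP compared with COR 9 of 12 were higher and 0 lower, where 3.20% of all genes were higher and 1.20% lower. SAG compared with PF gave 6 of 11 higher and 2 lower, against 9.04% and 6.64% of all genes. GP compared with PF gave 8 of 12 higher and 0 lower, against 6.24% and 5.72%. SAG compared with GP gave 2 of 12 higher and 4 lower, against 4.80% and 3.86%, with a median log2 ratio of -0.95. *Snorc*, a chondrocyte proteoglycan listed under an older symbol, was at 472 FPKM in GP, 12.1 in COR, 6.77 in PF, and 389 in SAG. *Mia*, a secreted protein of cartilage, stood at 132 FPKM in GP and 648 in SAG, and *Cilp2*, a protein of articular cartilage, at 269 in GP and 12.3 in SAG. *Fmod*, the gene of fibromodulin, was at 1828 FPKM in GP, 565 in COR, 1110 in PF, and 1078 in SAG, more even than any of the 10 matrix genes. *Cytl1*, named after its values were seen, was at 125 FPKM in SAG and between 1.65 and 7.89 elsewhere.

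**Figure D4:**
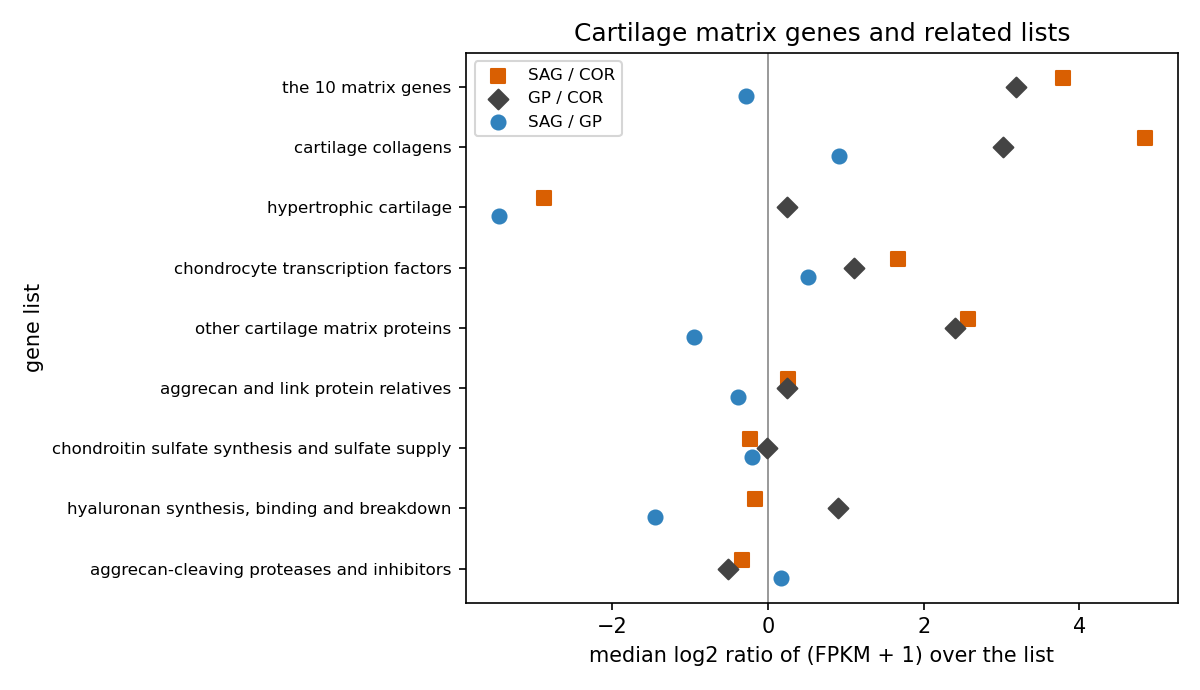
Median log2 ratio of (FPKM + 1) over the 10 cartilage matrix genes and over 8 related gene lists, for SAG / COR, GP / COR, and SAG / GP, 1 point per comparison. The matrix genes (3.78 and 3.19) and the cartilage collagens (4.84 and 3.02) lie to the right for SAG / COR and GP / COR, the hypertrophic list lies at -2.88 for SAG / COR and at -3.46 for SAG / GP, and the chondroitin sulfate list lies near 0 in all 3.

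Aggrecan carries chondroitin sulfate chains, and 25 genes of their synthesis and sulfate supply were read as a list. Their median log2 ratio was -0.10 in SAG compared with PF, -0.23 with COR, and -0.20 with GP, and -0.02 in GP compared with COR. At least 3-fold higher levels were found in SAG for 1 of 22 genes compared with PF, 1 of 23 compared with COR, and 0 of 25 compared with GP, and lower levels for 2, 1, and 1. Over all genes, in the same order, 9.04%, 6.15%, and 4.80% were higher and 6.64%, 3.11%, and 3.86% lower. The counts of the list were thus not far from these shares. Apart from *Chpf*, the genes past 3-fold in these comparisons were outside the naming rule and picked after their values were seen. They were *Papss2* (4.07 FPKM in PF, 28.0 in SAG) and *Csgalnact1* (3.46 in COR, 27.7 in SAG) on the higher side, and *Chpf*, *Chpf2*, *Chst13*, and *Chsy3* on the lower side. In GP compared with PF, 4 of 25 were higher, *Papss2*, *Slc26a2*, *Ugdh*, and *Chst7*, and 0 lower, where 6.24% of all genes were higher and 5.72% lower. In PF compared with COR 0 of 23 were higher and 3 lower, *Chst13*, *Chst15*, and *Papss2*, where 6.81% of all genes were higher and 4.87% lower. In GP compared with COR, 2 of 25 were higher and 1 lower, where 3.20% of all genes were higher and 1.20% lower. *Papss2* makes activated sulfate, and *Csgalnact1* starts the chondroitin chain. *Chpf*, the chondroitin polymerizing factor, was at 105 FPKM in GP, 109 in COR, 219 in PF, and 50.7 in SAG. *Ugdh*, which makes the UDP-glucuronic acid for the chains, was at 153 FPKM in GP, 77.3 in COR, 44.9 in PF, and 55.4 in SAG. *Chst12*, a chondroitin sulfotransferase, was lowest in SAG, at 58.6, and *Slc35b2*, a transporter of activated sulfate, was between 90.9 and 151.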

How the data were processed

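Bulk RNA-seq of sorted CD51+;CD200+ cells was used, with 1 library for each suture and 1 for the growth plate. RNA was amplified with an ultra low input kit, and paired-end reads were mapped by the authors to mouse mm9 with STAR 2.5.1b. The authors deposited FPKM by gene symbol, estimated with Cuffdiff of Cufflinks 2.2.1 and the Illumina iGenomes gene model. Its setting for library scaling and the depth are not given in the sources used here. FPKM carries no counts, so neither counting intervals nor a count test were used.

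Groups were taken from the sample titles. Log2 ratios used a pseudocount of 1, which understates changes of low genes, and a gene entered when either library reached 1 FPKM. No test between libraries was made. The fragments per library were estimated from transcripts above 1000 bases, with the longest coding transcript of each symbol. Lengths and gene positions came from a GENCODE annotation on the mm9 assembly, in which 80.8% of symbols had a coding transcript.

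The 10 genes, the related lists, and the marker lists were chosen with earlier results of these data known. Of each list, up to 4 genes with the highest FPKM in any library were named, together with the 8 genes nearest to the median profile of the 10 genes and the 3 nearest to *Matn1* and to *Acan*, of which *Gdf5* was the third for *Matn1*, at a distance of 1.35. Alternatives were pseudocounts of 0.1 and 5, median-ratio scaling, quantile normalization, values relative to *Gapdh*, thresholds of 2-fold and 5-fold, and other filters on low values. A loess correction for GC content (span 0.3) and a background of protein-coding genes were chosen after the data were seen. The ratio step was tested on simulated data. Scripts ran in Python 3.11.15 with pandas 2.3.3, numpy 2.4.6, and statsmodels 0.14.6, and figures were drawn with matplotlib 3.10.9.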

Additional observations from a re-analysis of the deposited data

How the results depend on the processing

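No paired analysis was possible because there was 1 library for each tissue. Of 66 alternative counts of matrix genes higher in the first-named library past the fold threshold, 65 stayed within 1.5 times the reported count. Genes past the threshold on the lower side were not scored in this way. Their count, 0 as reported, rose to 3 in SAG compared with GP at 2-fold. It rose to 1 in GP compared with PF, at 2-fold and also relative to *Gapdh*. Some alternatives could not change a count or median. All 10 genes reached 1 FPKM in each library and had a coding transcript. The filter at 1 FPKM in both libraries, the lack of a filter, and the protein-coding background therefore kept all 10 genes with the same ratios. The floor of 5 FPKM removed a matrix gene only from PF compared with COR, where 9 were left. With a threshold of 5-fold, 1 gene in place of 3 passed in PF compared with COR, which follows from the stricter threshold. Over the alternatives the counts on the higher side ran from 6 to 6 for SAG compared with PF, 7 to 9 for SAG with COR, 3 to 4 for SAG with GP, 5 to 7 for GP with PF, 7 to 9 for GP with COR, and 1 to 4 for PF with COR. In each of 48 alternatives run for them, the medians over the 10 genes kept their sign and their side of 3-fold, and the median for SAG compared with GP ran from -0.35 to -0.16. Depth limits the low values most: *Matn3* and *Ucma* in COR rested on an estimated 161 and 53 fragments.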

Other observations

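Other gene groups around the aggrecan aggregate were read as lists, too short for a low count to be set apart from the share over all genes. Of 9 genes of hyaluronan synthesis, binding, and breakdown, 6 or 7 could be compared with SAG, and 0 of them were at least 3-fold higher there, where 9.04% of all genes were higher than in PF, 6.15% than in COR, and 4.80% than in GP. At least 3-fold lower in SAG were 1 of 6 compared with PF, 2 of 6 compared with COR, and 3 of 7 compared with GP, against 6.64%, 3.11%, and 3.86% of all genes. *Tnfaip6*, whose product modifies hyaluronan, was at 114 FPKM in GP, 59.4 in COR, 3.02 in PF, and 6.27 in SAG. *Cd44*, the hyaluronan receptor, was at 75.1 FPKM in COR, 22.2 in GP, and lower in PF and SAG, where it was 3-fold or more below COR. *Hyal2*, a hyaluronidase, was between 34.3 and 83.4 FPKM, and *Hyal1* was between 4.36 and 9.26.

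Of 9 genes of aggrecan-cleaving proteases and their inhibitors, 0 were at least 3-fold apart between SAG and PF, and 1, *Adamts1*, was at least 3-fold higher in SAG than in GP, at 65.0 and 17.0 FPKM, with the same shares over all genes. In SAG compared with COR, 0 of 9 were higher and 2, *Adamts4* and *Mmp3*, lower. *Adamts4*, an aggrecanase, was at 36.8 FPKM in COR and 8.76 in SAG. *Htra1*, a serine protease, was at 384 FPKM in GP, 549 in COR, 1022 in PF, and 903 in SAG, and *Timp3*, an inhibitor of aggrecanases, was between 89.5 and 140 FPKM.

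Among 14 relatives of aggrecan, link protein, and the other matrix genes, 1 of 11 was at least 3-fold higher in SAG than in GP and 4 lower. Over all genes, 4.80% were higher and 3.86% lower. The gene on the higher side was *Optc*, the gene of opticin, named after its values were seen, at 0.465 FPKM in GP and 18.7 in SAG, and those on the lower side were *Tnmd*, *Ogn*, *Thbs3*, and *Thbs4*. *Ogn*, a small leucine-rich proteoglycan, was at 783 FPKM in GP, 516 in PF, 242 in SAG, and 214 in COR, *Thbs2* ran from 140 in SAG to 529 in COR, and *Thbs3* from 34.9 in SAG to 162 in GP. The neuron list summed to 80.7 FPKM in PF, of which *Gap43* was 78.8, and to between 14.8 and 22.1 in the other libraries, and *Snap25* was at 2.21 in SAG and is listed at 0 elsewhere. The blood and endothelium list summed to 2.93 FPKM in GP, 2.87 in COR, 23.8 in PF, and 20.6 in SAG, and *Kdr* was at 14.9 FPKM in SAG.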
